A study of Mus musculus with 6 samples.

Results

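The clustered protocadherins of the alpha, beta and gamma gene clusters were described in newborn mouse neocortex. Mice with Tcf4 targeted in the Emx1 lineage were compared with WT mice. Members were taken by gene symbol alone, as every listed gene named in the Pcdha, Pcdhb or Pcdhga, Pcdhgb and Pcdhgc series. They numbered 54 of the 15703 genes in the table: 12 alpha, 21 beta and 21 gamma, the gamma genes being 11 of A type, 7 of B type and 3 of C type. The mice called cKO were Tcf4 f/f; Emx1Cre/+, in which Cre recombinase is driven from the Emx1 locus and recombines the floxed Tcf4 allele in cells of that lineage. Emx1 is active in dorsal telencephalic progenitors, so their excitatory neurons and glia are targeted, while interneurons, microglia and vessels of other origin keep an intact allele. The comparison mice were labelled WT, and whether they carried the floxed allele or Cre was not given. Each genotype had 3 libraries of neocortical RNA from C57BL/6 mice at postnatal day 0. The 6 sample titles carry 6 animal codes, and nothing more was given on litters or batches, so the p-values measure the spread between these samples only.

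Clustered protocadherins are cadherin-like adhesion molecules of neurons. In the alpha and gamma clusters each variable first exon has its own promoter and is spliced to constant exons shared by the whole cluster, whereas each beta gene is a single exon with no constant part. Individual neurons choose a few variable isoforms, largely at random, under control of CTCF, cohesin and DNA methylation, while the C types are expressed more uniformly. The proteins bind the same combination on opposing membranes, which lets a neuron tell its own branches from those of other cells.

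The 3 clusters lie in a row on chromosome 18 in the mm10 build, all on the plus strand. The alpha cluster spans 36930184 to 37187661, the beta cluster 37264938 to 37524479 and the gamma cluster 37661793 to 37841873. The GENCODE M21 annotation holds 58 such genes, and Pcdha4, Pcdha11 (ENSMUSG00000102206), Pcdhga10 and Pcdhb1 were not among the listed genes. Of their exon bases 93.0%, 83.2%, 100% and 0%, in that order, were also annotated to another gene. The gene printed as Pcdha10 follows the table's symbol; GENCODE M21 gives the name Pcdha11 to the same identifier, ENSMUSG00000007440. Pcdhgb8 is annotated as a polymorphic pseudogene.

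Levels were given as FPKM, which counts sequenced fragments after correcting for exon length and for the size of the library. Counted as whole reads recovered from these values, a member had 28 to 1590 reads in a library, and 99.1% of member values came out within 0.1 of a whole read. Estimated library sizes were 23177000 to 24305500 reads in cKO and 23439500 to 26041500 reads in WT. Tcf4 itself had 56.5, 60.6 and 55.3 FPKM in cKO, against 71.2, 75.6 and 75.3 FPKM in WT, a log2 change of -0.36 (limma, adjusted p = 0.00411). Most of the Tcf4 signal thus remained in cKO, at a mean of 57.4 FPKM against 74.1 FPKM in WT. FPKM over the whole gene does not measure loss of the floxed part alone. Whole neocortex was sequenced, so fewer cells of a type and less RNA per cell cannot be told apart for any gene below. Among the neocortical markers reported here, all of them listed, Emx1 and Neurod2 fell in cKO and Emx2 rose (limma, adjusted p under 0.05). Emx1, the locus that carries Cre in the cKO mice, averaged 9.81 ± 0.638 FPKM in cKO and 12.5 ± 0.772 FPKM in WT (SD, n = 3 each; limma adjusted p = 0.00152).

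No clustered protocadherin passed the test between genotypes. Of 54 members, 0 were higher and 0 were lower in cKO (limma on log2(FPKM + 1), Benjamini-Hochberg adjusted p under 0.05 over all genes), while 15.8% of all 15703 genes passed. Among the 10074 genes with a mean level inside the members' own range, 0.323 to 10.8 FPKM, 16.6% passed. At an unadjusted p under 0.05 the members numbered 3, or 5.56%, against 32.2% of all genes. A second method, limma-voom on the recovered reads, also called 0 members, against 18.8% of the genes it tested, and 4 members had an unadjusted p under 0.05. These 4 were Pcdhb6, Pcdhga1, Pcdhgb8 and Pcdhgc5, and the highest voom log2 change was 0.42 at Pcdhac1.

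The estimates lay on both sides of 0. By sign alone 21 members were above and 33 below, with 5 and 7 in the alpha, 6 and 15 in the beta and 10 and 11 in the gamma cluster. The median log2 change was -0.01 for alpha, -0.05 for beta and -0.02 for gamma, beside 0.0017 for all genes. These medians moved with single libraries: with 1 library left out, alpha ran from -0.09 without WT replicate 3 to 0.04 without WT replicate 1, beta from -0.11 without cKO replicate 2 to -0.01 without cKO replicate 3, and gamma from -0.11 without WT replicate 3 to 0.08 without WT replicate 1. The gamma median was above 0 in 4 of these 6 settings. The median absolute log2 change was 0.0853 for the members and 0.138 for genes in the same level range, with median standard errors of 0.0962 and 0.0893. Every 95% interval on the log2(FPKM + 1) scale lay between -0.59 and 0.40. On the voom scale 42 of the 54 intervals stayed within 1.5-fold in either direction, and 53 stayed within 2-fold, the exception being Pcdhb6. A missed threshold does not show equal levels, and these intervals give the differences the 6 libraries still allow.

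**Figure D1:**
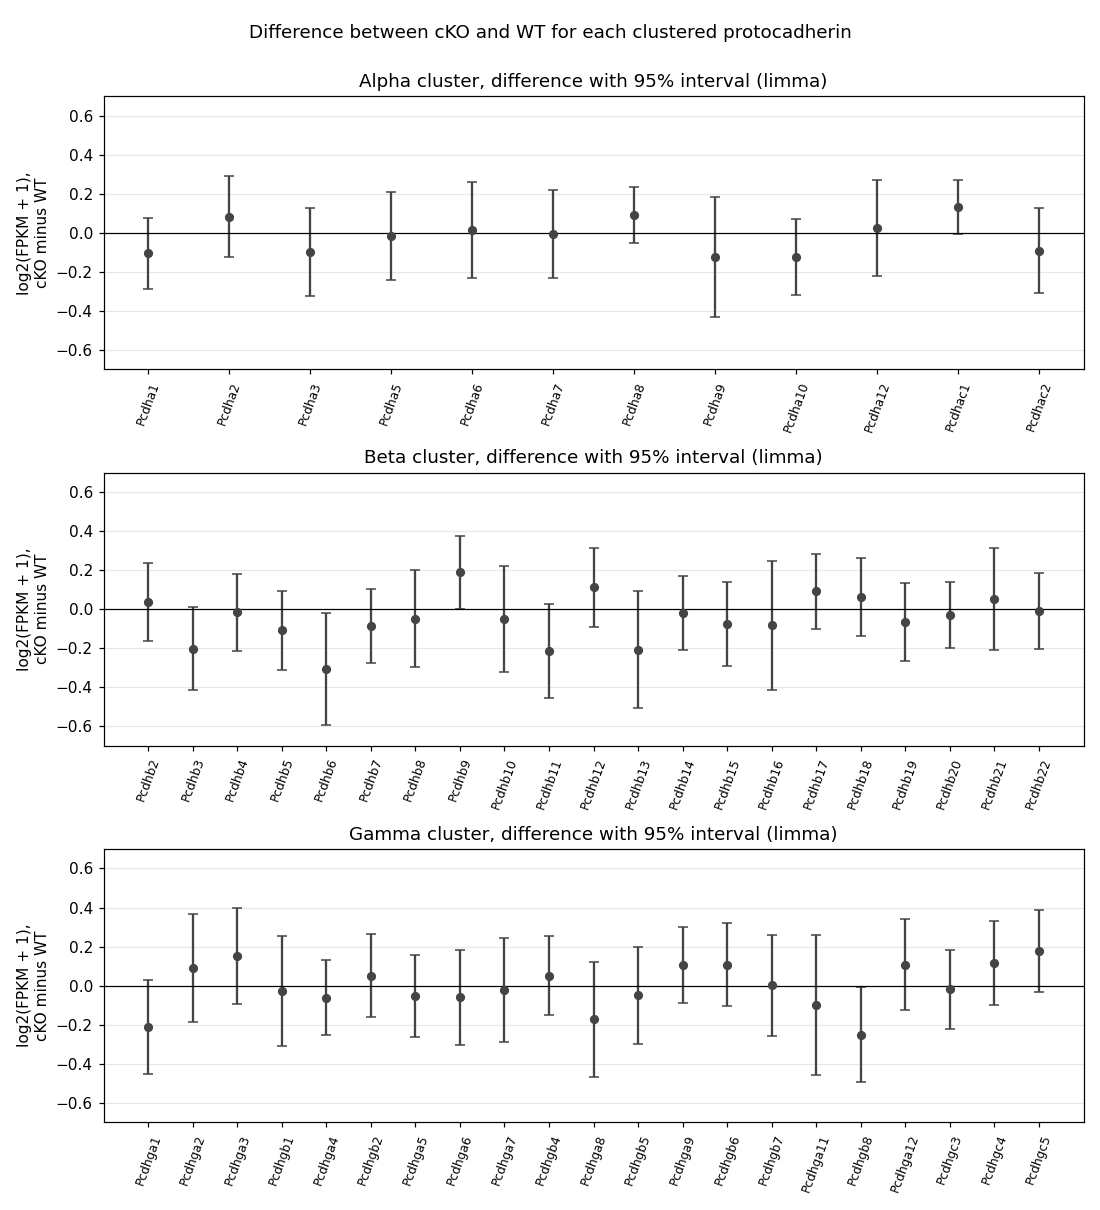
Difference in log2(FPKM + 1), cKO minus WT, for each member in chromosomal order, with 95% limma intervals (n = 3 per genotype). On this scale estimates run from -0.31 at Pcdhb6 to 0.19 at Pcdhb9, and only Pcdhb6, Pcdhgb8 and Pcdhb9 have intervals that leave out 0 before adjustment. With voom the highest estimate is at Pcdhac1, and the intervals of Pcdhb6, Pcdhga1, Pcdhgb8 and Pcdhgc5 leave out 0.

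The highest alpha gene was the last of its cluster. Pcdhac2, the C-type isoform known from serotonergic axons in mouse, had 5.20, 4.74 and 5.74 FPKM in cKO, against 6.06, 6.03 and 4.86 FPKM in WT. The ranges overlapped, and the log2 change was -0.09 with a standard error of 0.0979 (adjusted p = 0.543). Its neighbour Pcdhac1, the other C-type isoform, was among the lowest members, with 0.538, 0.456 and 0.557 FPKM in cKO, against 0.397, 0.401 and 0.354 FPKM in WT. All cKO libraries lay above all WT libraries for Pcdhac1, but the log2(FPKM + 1) change of 0.13 did not pass (limma adjusted p = 0.172). It rested on 60 to 70 reads in cKO and 45 to 56 reads in WT. The added 1 shrinks differences at such low levels, and voom gave a log2 change of 0.42 (limma-voom adjusted p = 0.162).

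Variable alpha isoforms spread over a wide range of levels. Pcdha8 was the lowest member of all, at 0.412, 0.308 and 0.372 FPKM in cKO, against 0.216, 0.287 and 0.344 FPKM in WT. Its groups overlapped (log2 change 0.09, limma adjusted p = 0.362). With voom the log2 change was 0.39 (limma-voom adjusted p = 0.302). Pcdha9 had 2.18, 2.27 and 3.54 FPKM in cKO, against 3.401, 2.76 and 2.72 FPKM in WT. The cKO replicate 3 library was the highest of the 6 and the other 2 cKO libraries were the lowest, with a log2 change of -0.13 and a standard error of 0.138 (adjusted p = 0.559). Pcdha10 averaged 1.58 ± 0.129 FPKM in cKO and 1.81 ± 0.163 FPKM in WT (SD, n = 3 each), and its log2 change of -0.12 did not pass (adjusted p = 0.354). The remaining 7 alpha genes overlapped between genotypes.

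Of the 4 members whose groups did not overlap (7.41% of 54, against 37.3% of all genes), 3 were beta genes: Pcdhb3, Pcdhb9 and Pcdhb11. The lowest log2 change among beta genes was at Pcdhb6, whose groups overlapped. Pcdhb6 had 0.900, 1.56 and 0.816 FPKM in cKO, against 1.596, 1.72 and 1.36 FPKM in WT. The cKO replicate 2 library lay inside the WT range and the other 2 cKO libraries below it. The log2 change was -0.31, with a 95% interval of -0.59 to -0.02 and a standard error of 0.129 (adjusted p = 0.131). With voom the log2 change was -0.56 (limma-voom adjusted p = 0.078). Without cKO replicate 2, the cKO library inside the WT range, Pcdhb6 passed at an adjusted p of 0.024 (limma). With any other single library left out it did not pass. The limma adjusted p then ran from 0.138 without WT replicate 3 to 0.332 without cKO replicate 1.

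Pcdhb9 had 3.98, 3.60 and 3.97 FPKM in cKO, against 2.98, 3.42 and 3.38 FPKM in WT. All cKO libraries lay above all WT libraries, with a log2 change of 0.19 and a standard error of 0.0834 (limma, adjusted p = 0.150). Pcdhb3 had 1.57, 2.04 and 1.75 FPKM in cKO, against 2.13, 2.45 and 2.05 FPKM in WT. Its highest cKO library lay just under its lowest WT library, and the log2 change was -0.20 (adjusted p = 0.171). Pcdhb11 averaged 2.51 ± 0.477 FPKM in cKO and 3.05 ± 0.107 FPKM in WT (SD, n = 3 each), again without overlap, with a log2 change of -0.21 (adjusted p = 0.201). Pcdhb9, Pcdhb3, Pcdhb11 and Pcdhac1, whose groups did not overlap, were 7.41% of 54, against 37.3% of all genes.

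Beta levels were higher towards the distal end of the cluster. Pcdhb20, the highest beta gene, had 6.90, 7.72 and 6.53 FPKM in cKO, against 7.27, 7.14 and 7.18 FPKM in WT. The WT values fell inside the cKO range (log2 change -0.03, adjusted p = 0.819). Across the 21 beta genes, order along the chromosome and mean FPKM had a Spearman correlation of 0.519 in cKO and 0.509 in WT. In the alpha cluster the same value was 0.343 in cKO and 0.259 in WT over 12 genes, and in the gamma cluster -0.0623 in cKO and -0.0584 in WT over 21. These are descriptions across genes that share the same libraries.

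**Figure D2:**
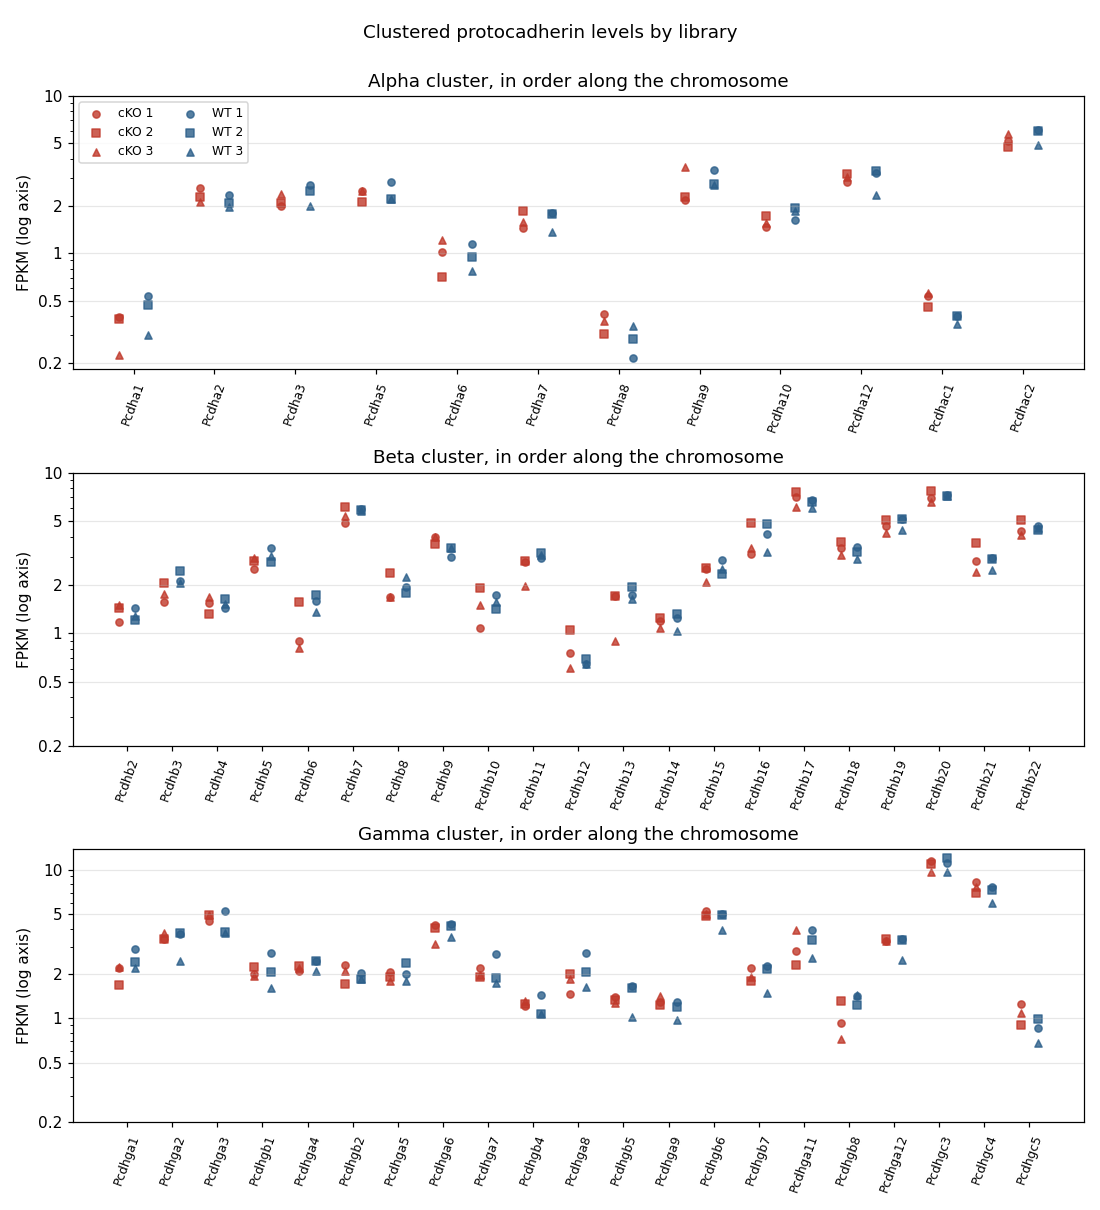
FPKM of each member in each library (log axis), in chromosomal order within each cluster, cKO left of WT. Pcdhac2, Pcdhb17, Pcdhb20, Pcdhgc3 and Pcdhgc4 are high in all 6 libraries, while Pcdha1, Pcdha8 and Pcdhac1 are low in all 6.

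The gamma C-type genes included the highest members. Pcdhgc3 had 11.5, 10.969 and 9.68 FPKM in cKO, against 11.1, 11.9 and 9.64 FPKM in WT, with overlapping groups (log2 change -0.02, adjusted p = 0.903). Pcdhgc4, the gamma isoform needed for neuronal survival in mouse, averaged 7.64 ± 0.676 FPKM in cKO and 6.99 ± 0.874 FPKM in WT (SD, n = 3 each; log2 change 0.12, limma adjusted p = 0.433). Pcdhgc5, the last gene of the cluster, had 1.247, 0.906 and 1.09 FPKM in cKO, against 0.861, 0.988 and 0.677 FPKM in WT. Its groups overlapped through 1 library of each genotype, and the log2 change of 0.18 did not pass (adjusted p = 0.221). With voom the log2 change was 0.36 (limma-voom adjusted p = 0.144).

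At the proximal end, Pcdhga1 had 2.18, 1.68 and 2.20 FPKM in cKO, against 2.90, 2.40 and 2.19 FPKM in WT, and the groups overlapped narrowly (log2 change -0.21, adjusted p = 0.208). Pcdhgb8 had 0.934, 1.31 and 0.729 FPKM in cKO, against 1.41, 1.24 and 1.42 FPKM in WT. Only cKO replicate 2 reached the WT range, and the log2 change was -0.25 with a 95% interval of -0.49 to -0.01 (adjusted p = 0.142). With voom the log2 change was -0.48 (limma-voom adjusted p = 0.0899). All 21 gamma genes overlapped between genotypes.

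The make-up of the clusters was close in both genotypes. C types held 24.7% ± 1.08 of alpha FPKM in cKO and 25.1% ± 0.804 in WT (SD, n = 3 each). In the gamma cluster the C types held 30.4% ± 1.42 in cKO and 29.6% ± 1.65 in WT, the A types 46.6% ± 1.70 in cKO and 47.4% ± 1.33 in WT, and the B types 22.9% ± 0.366 in cKO and 23.0% ± 0.351 in WT. Each of these differences was smaller than the larger of the paired SDs. Across the 54 members the mean levels of cKO and WT had a Pearson correlation of 0.987 on the log2(FPKM + 1) scale and a Spearman correlation of 0.984, given as a description.

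Summed over a cluster, the levels also overlapped. Alpha FPKM summed to 22.6, 22.1 and 24.8 in cKO, against 26.4, 24.8 and 21.1 in WT. Beta FPKM summed to 60.5, 70.1 and 57.7 in cKO, against 66.4, 65.8 and 61.8 in WT. Gamma FPKM summed to 65.9, 62.4 and 63.2 in cKO, against 71.0, 65.9 and 53.7 in WT. The WT sums spread more widely than the cKO sums in the alpha and gamma clusters, and the cKO sums more widely in the beta cluster.

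**Figure D3:**
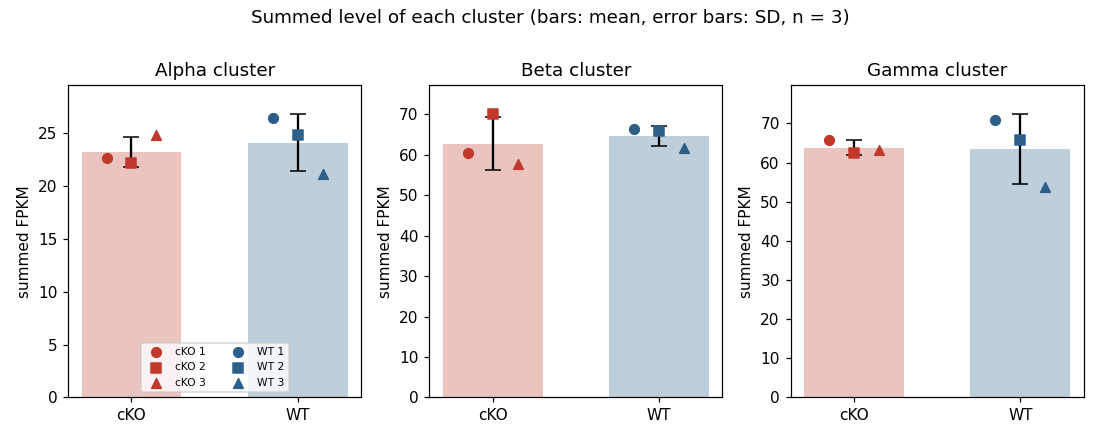
Summed FPKM of the alpha, beta and gamma clusters in each library, with bars at the group mean and error bars of 1 SD (n = 3 per genotype). The means are 23.2 in cKO and 24.1 in WT for alpha, 62.8 in cKO and 64.7 in WT for beta, and 63.8 in cKO and 63.5 in WT for gamma.

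Single libraries moved whole clusters. In the gamma cluster WT replicate 3 was the lowest WT library in 19 of 21 genes, and it was the lowest of WT in 38.3% of all genes. WT replicate 1 was the highest WT library in 16 of 21 gamma genes, against 29.1% of all genes. In the beta cluster cKO replicate 2 was the highest cKO library in 16 of 21 genes, against 28.2% of all genes, and cKO replicate 3 was the lowest in 13 of 21, against 33.6%. Median deviations from the group mean were 0.13 for cKO replicate 2 and -0.11 for cKO replicate 3 in beta genes, and 0.13 for WT replicate 1 and -0.16 for WT replicate 3 in gamma genes, on the log2(FPKM + 1) scale. What set these libraries apart was not tested.

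**Figure D4:**
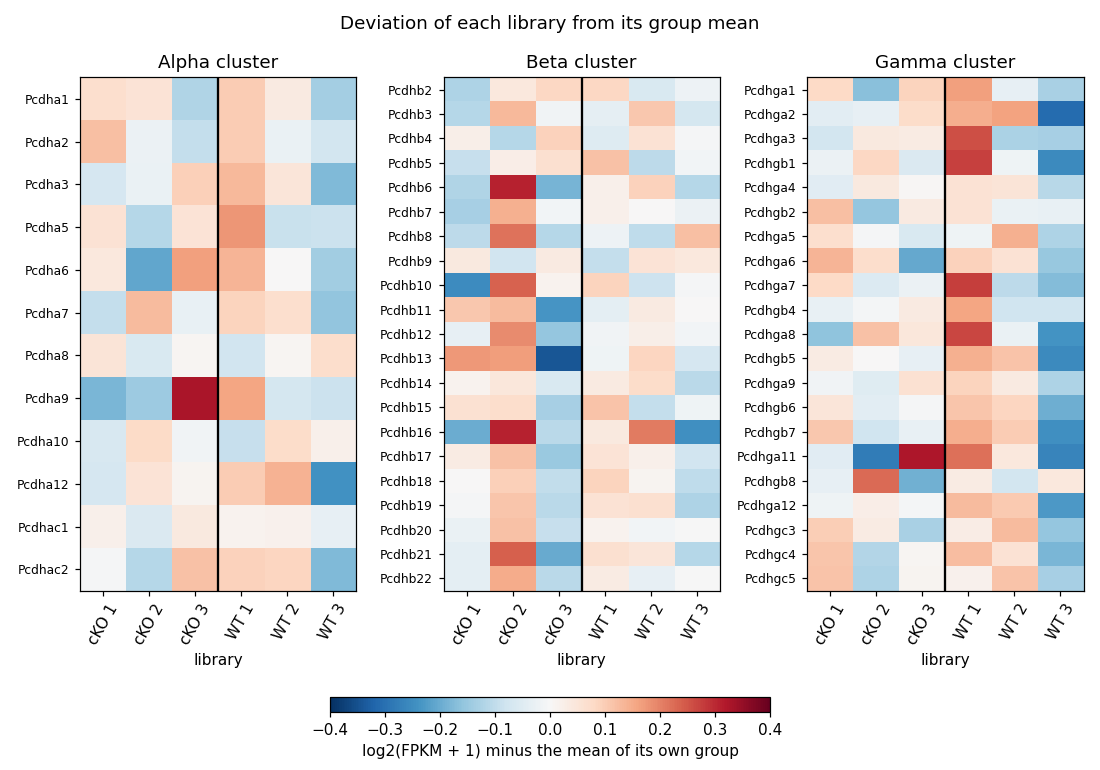
Deviation of each library from the mean of its own genotype in log2(FPKM + 1), one row per member in chromosomal order, cKO left of WT. The cKO replicate 2 column is mostly red in the beta cluster (highest in 16 of 21) and the WT replicate 3 column mostly blue in the gamma cluster (lowest in 19 of 21).

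Spread between replicates differed by cluster. The median coefficient of variation within a genotype was 10.8% in cKO and 11.99% in WT, while counting alone gave 6.37% in cKO and 6.14% in WT. The spread was above counting error in 44 of 54 members in cKO and in 44 of 54 in WT, and below it in the others, as in Pcdhb20 in WT (0.927% against 4.01%). In the gamma cluster it was 7.78% in cKO and 17.5% in WT, and in the beta cluster 11.9% in cKO and 8.72% in WT.

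Shared exons affect how far alpha and gamma levels can be read. Between 48.6% and 64.9% of the exon bases of a listed alpha gene were also annotated to another gene. For a listed gamma gene it was between 31.5% and 73.6%, whereas 18 of 21 listed beta genes shared none. A read in a constant exon cannot be given to 1 isoform, so FPKM over the full length understates these genes if such reads were dropped. How the authors treated shared reads was not given in the sources used here. Recovered reads were whole to within 0.1 in 100% of alpha values and 98.4% of gamma values, so counting in fractions of a read was not seen. In WT replicate 1, Pcdha8 had 30 reads and Pcdhac2 had 929, although both share the constant exons. Reads in those exons were therefore not all counted for each gene. The unshared levels below hold only if shared reads were dropped altogether. Per kilobase of unshared exon, scaled to library size in the same way, the median level was 4.44 for alpha, 2.78 for beta and 4.58 for gamma, compared with median FPKM of 1.97, 2.78 and 2.08. With only sharing on the gene's own strand removed, the medians were 4.44 for alpha, 2.78 for beta and 3.73 for gamma. The order of the cluster medians therefore depends on the length used, and alpha and gamma change places between these scales. Pcdhgc3 stood highest on this scale, at 32.6 per unshared kilobase, or 17.6 if only sharing on its own strand is removed. First exons also resemble each other: up to 23.4% of the 50-base words of an alpha first exon (Pcdha7) and 17.9% of a gamma first exon (Pcdhgb2) occurred in another member. Some of their reads may therefore fit more than 1 gene.

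**Figure D5:**
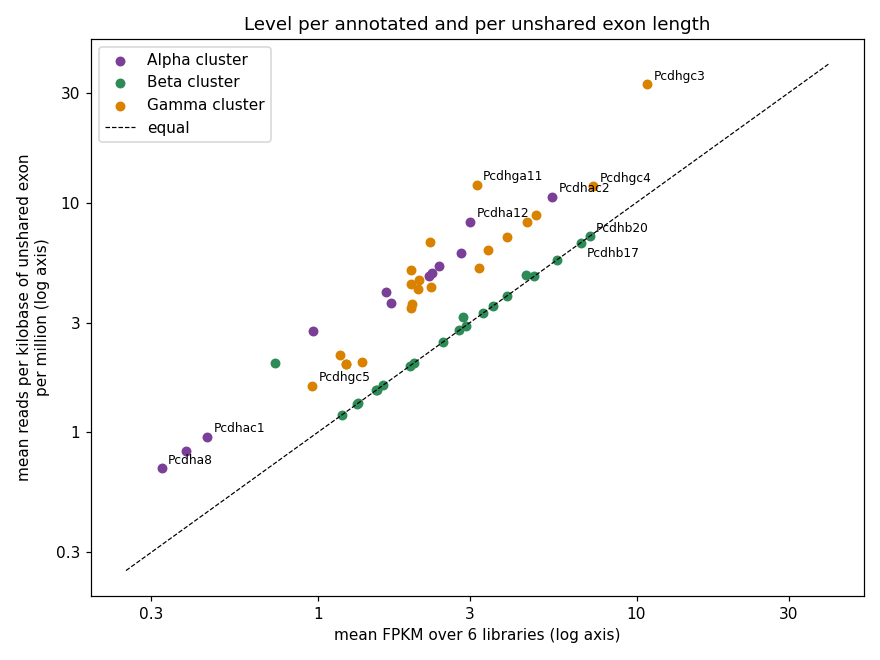
Mean FPKM over 6 libraries against mean reads per kilobase of unshared exon, scaled to library size, for each member (both axes log), coloured by cluster. Most beta genes lie on the line of equality, while all alpha and gamma genes lie above it.

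Of 28 genes picked for roles in promoter choice, chromatin looping or silencing, all listed, 4 rose in cKO, 0 fell and 24 did not pass. Their action on the protocadherin clusters in this tissue was not tested. The called share was 14.3%, near the 15.8% of all genes. The median log2 change of the list was 0.12, beside 0.0017 for all genes. The DNA demethylase gene Tet2 averaged 9.19 ± 0.969 FPKM in cKO and 6.81 ± 0.623 FPKM in WT (SD, n = 3 each; limma adjusted p = 0.0205). The de novo methyltransferase gene Dnmt3a averaged 11.7 ± 0.242 FPKM in cKO and 8.99 ± 1.38 FPKM in WT (adjusted p = 0.0334). The histone methyltransferase gene Setdb1 averaged 18.3 ± 0.250 FPKM in cKO and 15.7 ± 0.641 FPKM in WT (adjusted p = 0.0471). The repressor gene Rest averaged 2.93 ± 0.0122 FPKM in cKO and 2.26 ± 0.163 FPKM in WT (adjusted p = 0.0474). All 4 calls were lost under some alternatives, Tet2 under 4, Dnmt3a under 6, Setdb1 under 9 and Rest under 8 of 16, with adjusted p up to 0.0862, 0.130, 0.193 and 0.213.

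The architectural factors did not pass. Ctcf, which binds protocadherin promoters and enhancers, averaged 29.5 ± 0.195 FPKM in cKO and 28.6 ± 0.845 FPKM in WT (SD, n = 3 each; limma adjusted p = 0.633). The cohesin subunit Rad21 averaged 61.2 ± 3.07 FPKM in cKO and 60.4 ± 1.97 FPKM in WT (adjusted p = 0.867). The cohesin loader Nipbl averaged 23.2 ± 1.10 FPKM in cKO and 20.2 ± 2.27 FPKM in WT (adjusted p = 0.139). It passed under 1 of 16 alternatives, without WT replicate 2 (limma adjusted p = 0.0438). Under the other 15 it did not pass, with adjusted p up to 0.621 (limma). Smchd1, which silences protocadherin promoters in mouse, averaged 7.40 ± 0.516 FPKM in cKO and 6.67 ± 1.03 FPKM in WT (adjusted p = 0.368).

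A list of 31 partner genes was picked for products known to bind, cleave or signal downstream of clustered protocadherins. Of these, 2 rose in cKO, 5 fell and 24 did not pass, a called share of 22.6% beside 15.8% of all genes. The list's median log2 change was -0.06. Wasf3, a subunit of the WAVE actin regulatory complex, averaged 23.1 ± 1.18 FPKM in cKO and 15.7 ± 0.395 FPKM in WT (SD, n = 3 each; limma adjusted p = 0.000627), and the kinase gene Prkca 11.7 ± 0.459 FPKM in cKO and 8.80 ± 0.558 FPKM in WT (adjusted p = 0.00646, and 0.0561 without both cKO replicate 2 and WT replicate 3). Gfra1, a GDNF co-receptor gene, averaged 1.28 ± 0.108 FPKM in cKO and 3.44 ± 0.499 FPKM in WT (adjusted p = 0.0003). Ptk2b, whose kinase is inhibited by clustered protocadherins, averaged 5.14 ± 0.405 FPKM in cKO and 7.85 ± 0.941 FPKM in WT (adjusted p = 0.00526). The WAVE subunit gene Brk1 averaged 64.1 ± 3.70 FPKM in cKO and 78.6 ± 6.21 FPKM in WT (adjusted p = 0.0264), and lost its call under 3 of 16 alternatives. The focal adhesion kinase gene Ptk2, named after its values were seen, averaged 29.4 ± 0.665 FPKM in cKO and 34.9 ± 1.86 FPKM in WT (adjusted p = 0.0304), and lost its call under 6.

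The delta protocadherins are related genes outside the clusters, each with its own promoter. Of the 11 listed, 4 rose in cKO, 3 fell and 4 did not pass (limma), a called share of 63.6% beside 15.8% of all genes. Pcdh17 averaged 15.4 FPKM in cKO and 10.4 FPKM in WT (adjusted p = 0.00175), Pcdh10 11.4 FPKM in cKO and 7.75 FPKM in WT (adjusted p = 0.00262), Pcdh18 8.45 FPKM in cKO and 5.40 FPKM in WT (adjusted p = 0.00402) and Pcdh11x 2.18 FPKM in cKO and 1.37 FPKM in WT (adjusted p = 0.0072). Pcdh9 averaged 10.7 FPKM in cKO and 21.6 FPKM in WT (adjusted p = 7.32e-05), Pcdh7 7.47 FPKM in cKO and 11.3 FPKM in WT (adjusted p = 0.00111) and Pcdh20 1.92 FPKM in cKO and 2.66 FPKM in WT (adjusted p = 0.0238). Pcdh20 lost its call under 5 of the 16 alternatives, 4 of which left out a single library, with adjusted p up to 0.131. Pcdh11x lost its call under 1, without both cKO replicate 2 and WT replicate 3 (limma adjusted p = 0.0618). The difference between the delta and the clustered genes was not tested.

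Markers of several other cell types also fell in cKO (limma, adjusted p under 0.05). Of 8 astrocyte markers 7 fell, with a summed level of 81.4 to 99.9 FPKM in cKO and 126 to 160 FPKM in WT. Microglia markers fell in 4 of 7 (12.9 to 18.3 FPKM in cKO, 22.1 to 24.9 FPKM in WT), interneuron markers in 3 of 10 (71.8 to 74.98 FPKM in cKO, 84.2 to 88.3 FPKM in WT) and oligodendrocyte lineage markers in 2 of 7 (47.7 to 55.7 FPKM in cKO, 62.6 to 71.2 FPKM in WT). The called shares were 87.5% of astrocyte, 57.1% of microglia, 30% of interneuron and 28.6% of oligodendrocyte lineage markers, beside 15.8% of all genes. Of 6 Cajal-Retzius markers 1 fell (Calb2), or 16.7%, near the share of all genes. Sostdc1 of the 2 listed choroid plexus markers also fell, and all 7 endothelial and mural markers missed the threshold. The serotonin transporter gene Slc6a4 had 0.019, 0.054 and 0.010 FPKM in cKO, against 0.542, 0.470 and 0.669 FPKM in WT (limma adjusted p = 0.000306). Tph2, the other listed serotonergic marker, did not pass (limma adjusted p = 0.968). Both genes were under 1 FPKM in every library, and which cells carry their RNA was not tested. The part of these cell types in the protocadherin levels was not tested.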

How the data were processed

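RNA from neocortex of 3 cKO and 3 WT mice was made into TruSeq libraries, per the labels' protocols. The submitters' processing notes name bcl2fastq 1.8.4, STAR 2.5.4b, featureCounts 1.6.1, R 3.4.1, DESeq2 1.22.1 and the mm10 build. Which annotation release and strand setting were used, and whether genes were filtered, is not given in the sources used here. Gene levels were deposited by the authors as FPKM, per the file headers. The table held 15703 genes, and 139 blank lines were left out.

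Here, log2(FPKM + 1) of all genes was tested with limma 3.58.1 (R 4.3.3; empirical Bayes with trend and robust settings, genotype only, 2-sided), called at a Benjamini-Hochberg adjusted p under 0.05. A fold change on this scale understates the change of low genes. Whole reads were recovered from FPKM, GENCODE M21 exon length and a library size chosen for each library, for limma-voom, counting error and unshared levels. In low genes (exon length under 3000 bases, at most 50 reads, no shared bases) a whole read was met to within 0.1 by 95.1% to 95.8% of values. Reads in listed genes sum above the chosen sizes, so these depths are approximate. Of the genes, 15661 matched the annotation and 42 did not. The procedure was also run on simulated data, and how often it recovered differences as small as those of the members is not reported here.

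Members and lists were chosen with earlier results of these data known. Full statistics were given for the highest member of each cluster, its 3 smallest p-values, its extreme log2 changes and all C types, and for up to 4 called genes per direction in each pathway list. Pcdhb11 and Ptk2 fall outside this rule and were named after their values were seen. Some genes of the lists are not reported here. Alternatives covered pseudocounts of 0.1 and 0.5, a mean FPKM of at least 1, trimmed-mean and quantile scaling, plain limma, voom, a length and GC correction, a replicate block and leaving out each library.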

Additional observations from a re-analysis of the deposited data

How the results depend on the processing

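The number of members higher in cKO stayed 0 under all 16 alternatives, and the number lower stayed 0 under 14. Pcdhb6 was called, giving 1 member lower, without cKO replicate 2, and again 1 without both cKO replicate 2 and WT replicate 3, an alternative chosen after seeing the data. Leaving out each library in turn gave 0 to 1 members lower. The lists of regulators (28 genes), partner genes (31) and delta protocadherins (11) were pooled here. Their called shares were 14.3%, 22.6% and 63.6%, beside 15.8% of all genes. Of the pooled genes 10 were called higher, and 6 to 15 with a library left out. The 6 came without cKO replicate 1 or cKO replicate 2, and the 15 without WT replicate 2. Pooled genes called lower numbered 8, and 5 to 9 with a library left out (5 without cKO replicate 1 or cKO replicate 2). Delta protocadherins made up 4 of the 10 higher and 3 of the 8 lower calls. Without both cKO replicate 2 and WT replicate 3 the pooled genes had 4 higher and 5 lower calls. The alpha median log2 change ranged from -0.092 (without WT replicate 3) to 0.044 (without WT replicate 1), and was -0.11 without both cKO replicate 2 and WT replicate 3. The beta median (-0.049) ranged from -0.11 to -0.011 and the gamma median (-0.020) from -0.11 to 0.080 with a library left out. The sign turned for Pcdhb20 (0.018) without cKO replicate 3, within a range of -0.089 to 0.018 over the settings that leave libraries out, and for Pcdhgc3 without cKO replicate 3 (0.046) and without WT replicate 2 (0.043). It turned for Rad21 without cKO replicate 3 (-0.01), without WT replicate 3 (-0.0083) and without both cKO replicate 2 and WT replicate 3 (-0.021), within a range of -0.021 to 0.059. The cause was not tested.

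Over all genes 1134 were higher and 1349 lower, against 544 to 1572 higher and 830 to 1517 lower with a library left out, and 452 higher and 783 lower without both. Leaving out libraries leaves fewer samples. Of all calls 45.7% were higher, against 51.2% with voom, 39.6% to 50.9% with a library left out and 36.6% without both. Same-numbered cKO and WT libraries had correlations of deviations of -0.0462, 0.0998 and -0.0476, and cKO replicate 3 correlated best with WT replicate 1 (0.206), so the numbers were not taken to pair samples. A fit with a replicate block called 0 members, and 1274 genes higher and 1541 lower. With 28 to 1590 reads a member, depth limits the lowest genes most.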
